A study of Bos taurus and Bos indicus with 6 samples.

Results

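The heat shock protein and DNAJ cochaperone genes of cattle were compared in the blood leukocytes of tick-infested cattle of the Brahman and Holstein breeds. Members were taken by gene symbol: every probe set of the bovine array with exactly 1 symbol beginning with HSPA, HSPB, HSPD, HSPE, HSPH, HSP90 or DNAJ. This gave 74 probe sets for 47 genes, of 9155 genes with a symbol on the array, and each gene was read from the probe set with the highest mean over all 6 arrays. Of the 47 genes, 26 encode DNAJ proteins and 19 heat shock proteins. The 2 others, HSPBP1 and HSPBAP1, came in by their letters and encode proteins named for binding a heat shock protein.

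The study holds 6 arrays, 1 for each animal. The Brahman group was 3 female Bos indicus animals and the Holstein group 3 female Bos taurus animals, given as Holstein-Friesian in the design text. All were 6 months old and under heavy challenge with R. microplus, the cattle tick. No animal without ticks was analysed here, so every difference between the breeds includes any that exists without infestation. RNA came from uncultured jugular blood after lysis of the red cells, and the labels name no sorting of the white cells.

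Molecular chaperones help other proteins to fold, keep unfolding proteins from clumping and hand damaged ones to degradation. HSP70 proteins bind short stretches of a client in a cycle driven by ATP. DNAJ proteins, also called J proteins or HSP40, bring clients to HSP70 and stimulate its ATPase, while exchange factors such as the HSP110 proteins release the nucleotide and the client. HSP90 matures signalling proteins such as kinases and steroid receptors, HSP60 with its lid HSP10 encloses proteins in the mitochondrial matrix, and small heat shock proteins hold unfolding proteins without using ATP. The heat shock factor HSF1 induces several of these genes, among them HSPA1A, DNAJB1 and HSPH1, when proteins are damaged. White cells use them in fever and when they start to make and secrete much protein.

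Values are log2 expression as made by RMA, and differences are Brahman minus Holstein throughout. Their SE is limma's moderated standard error, and adjusted p-values are Benjamini-Hochberg values over all 24016 probe sets tested. RMA matches the distribution of values between arrays, so a shift shared by all transcripts would not be seen. The number of arrays limits the precision. In bulk RNA of mixed leukocytes, fewer cells of a type and less RNA per cell cannot be told apart. No probe sequences were compared between Bos indicus and Bos taurus. A sequence difference under a probe cannot be told apart here from a difference in RNA level. Levels of different probe sets are not compared with each other, because each binds its target with its own strength.

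Array medians lay between 6.54 and 6.61. Over all probe sets Holstein 3 correlated with the Brahman arrays at 0.987 to 0.989 and with Holstein 1 and 2 at 0.987 and 0.988, so it stood as near to the other breed as to its own. Without it 6 of 47 members were lower and 4 higher at p under 0.05 before adjustment, against 7 and 4 with all arrays. Over all named genes 12% were lower and 6.55% higher without it, against 9.62% and 6.23% with all arrays. The hybridisation spike-in controls, RNAs meant to be added in equal amounts to every array, were higher on every Holstein array (9.94 to 10.38) than on any Brahman array (9.64 to 9.80). The actin 3′ minus 5′ level, a sign of RNA quality that grows as transcripts lose their 5′ ends, was 1.70, 1.64 and 1.72 in Brahman and 1.73, 1.98 and 1.88 in Holstein, with Brahman 3 and Holstein 1 nearly equal. Markers of the main blood lineages were present. The T cell gene CD3E, the B cell gene MS4A1 and the neutrophil and monocyte gene S100A8 averaged 11.19, 12.75 and 13.59. Of the 5 red cell genes, SLC4A1 and AHSP averaged 4.11 and 4.41, under the lower quartile of all probe sets (5.08), while HBB, ALAS2 and HBA averaged 9.73, 5.90 and 5.09, above it.

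No chaperone gene passed the test across all probe sets. At an adjusted p under 0.05 limma called 0 of the 47 genes, where it called 0.164% of all named genes read in the same way (0.0765% lower and 0.0874% higher) and 0.0583% of all probe sets lower and 0.0791% higher. The smallest adjusted p among the members was 0.213. Unadjusted, 11 members had p under 0.05 (23.4%, beside 15.8% of all named genes), 7 lower and 4 higher in Brahman. These are 14.9% and 8.51% of the 47, beside 9.62% and 6.23% of all named genes. The breeds did not overlap in 14 members (29.8%, beside 22.7% of all named genes), 8 lower and 6 higher. The 8 lower compare with 12.2% of all named genes and 8.37% of all probe sets, and the 6 higher, 12.8% of members, with 10.4% and 11.7%. These shares lay above those of all named genes, but each rests on few genes and the difference was not tested. It did not hold in every fit. Without Brahman 1 or Brahman 3, 2 of 47 members were higher at p under 0.05 before adjustment, beside 4.42% and 4.57% of all named genes. Without Brahman 2, 5 were higher, beside 4.86%. With the spike-in level in the model 2 were lower and 4 higher, beside 4.75% and 5.16%. The values below are descriptions of differences that did not pass the test over all probe sets.

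**Figure D1:**
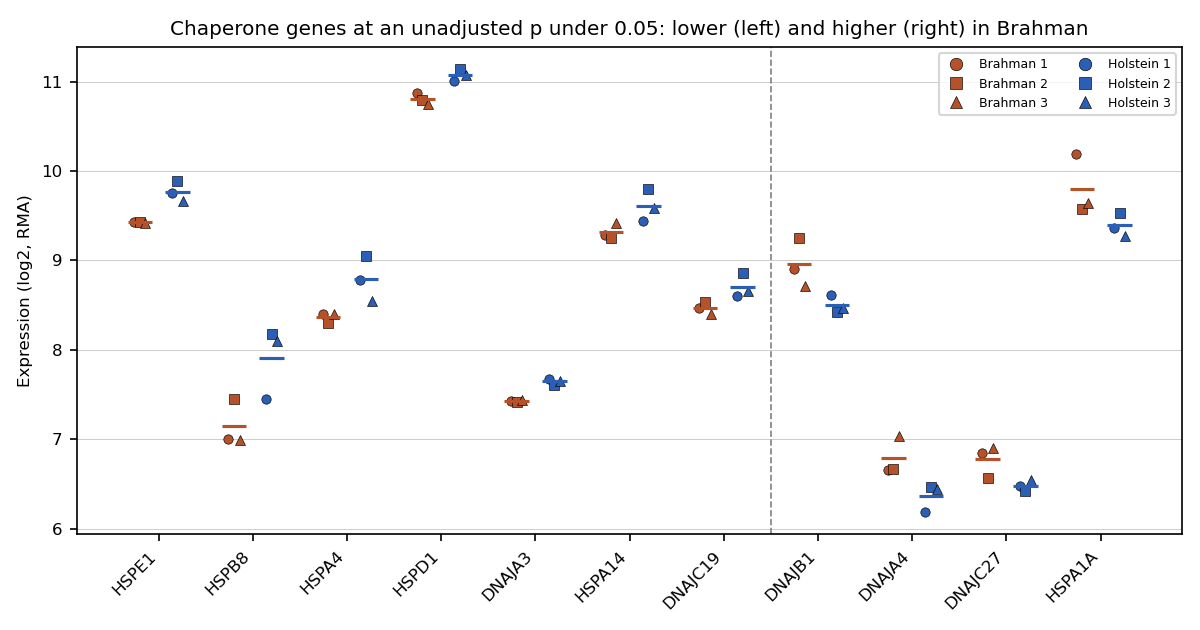
Log2 RMA expression (vertical axis) of the 11 chaperone genes at an unadjusted p under 0.05, with 1 symbol per array, breeds in colour and the breed mean as a bar. The 7 genes left of the dashed line had lower and the 4 right of it higher values in Brahman, and in all 11 the breeds do not overlap, by a gap of only 0.0038 for HSPB8 and of 0.24 for HSPE1.

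Of 47 genes 29 had lower values in Brahman (61.7%, beside 51.7% of all named genes), and the median difference was -0.05, beside -0.01 over all named genes. Among 19 heat shock protein genes 14 were lower, and their median was -0.16, with 5 lower and 1 higher at p under 0.05 before adjustment. Among 26 DNAJ genes 13 were lower and 13 higher, and their median was -0.01, with 2 lower and 3 higher at that threshold. The difference between these classes was not tested.

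**Figure D2:**
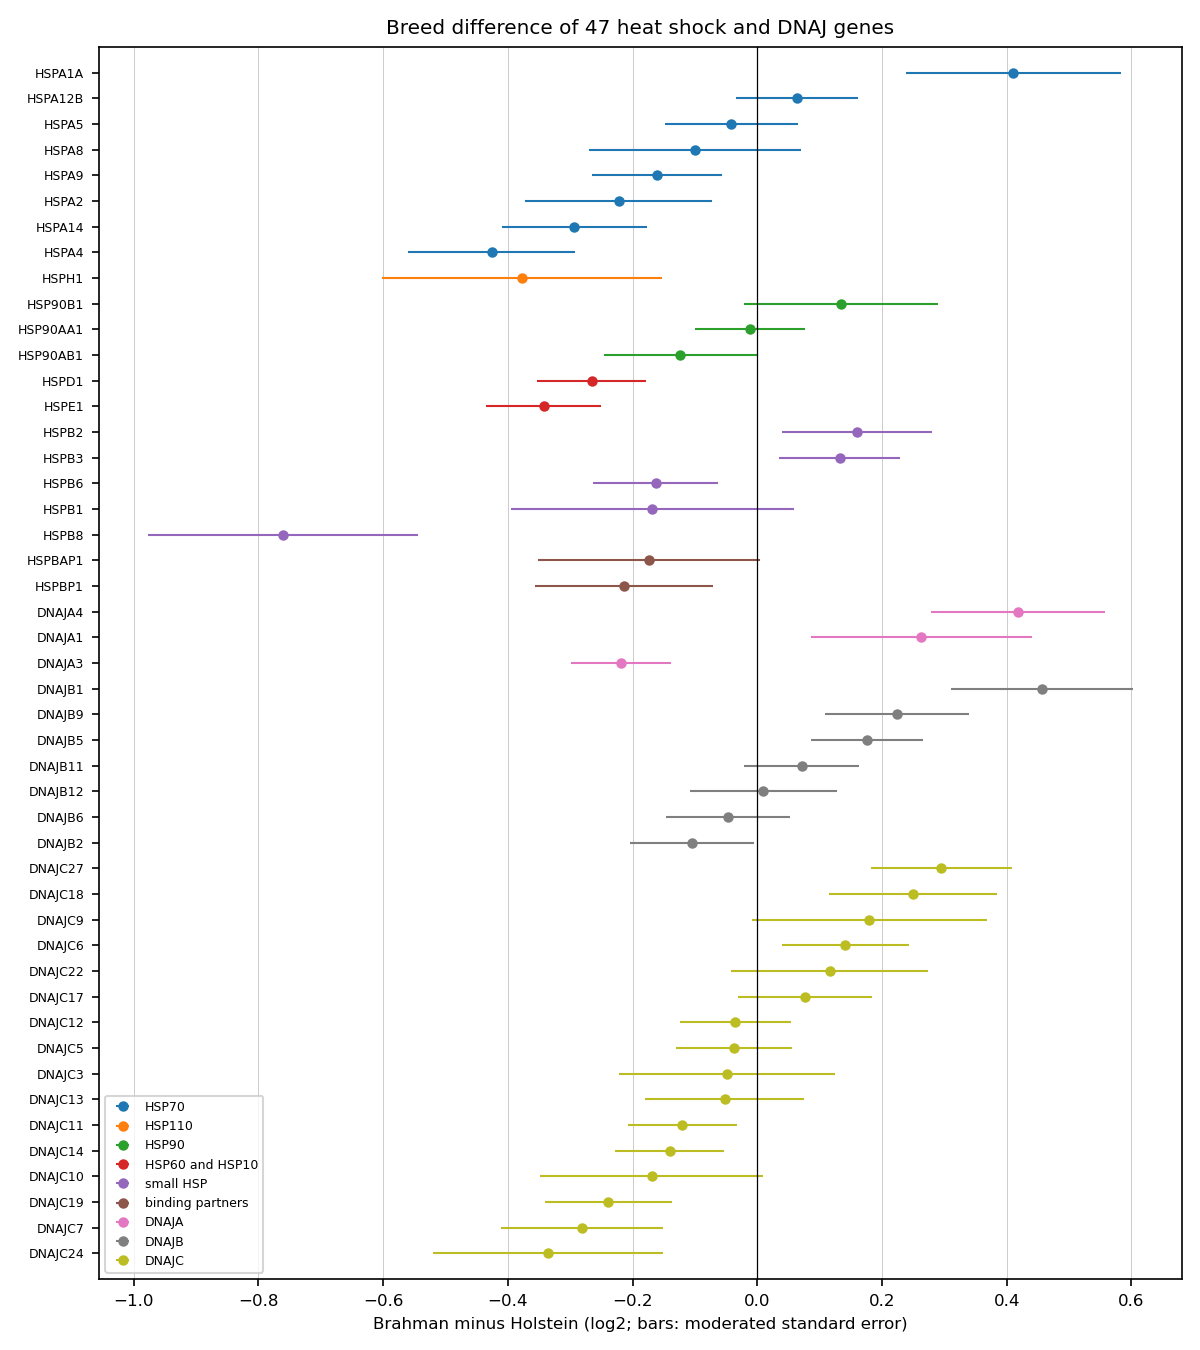
Difference of each of the 47 genes (horizontal axis, Brahman minus Holstein, log2, bars for the moderated standard error), grouped and coloured by family. HSPB8 has the lowest value (-0.76) and DNAJB1 the highest (0.46), and most of the others lie between -0.4 and 0.3.

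The chaperonin of the mitochondrial matrix had lower values in Brahman for both of its parts. HSPE1, the HSP10 lid, read 9.43, 9.43 and 9.42 in Brahman 1, 2 and 3 and 9.75, 9.89 and 9.66 in Holstein 1, 2 and 3. The Brahman arrays lay within 0.01 of each other, and all lay below the lowest Holstein array, Holstein 3. The difference was -0.34 (SE 0.09, adjusted p = 0.213), or 1.27-fold lower in Brahman. HSPD1, the HSP60 barrel, read 10.87, 10.80 and 10.75 in Brahman and 11.01, 11.14 and 11.07 in Holstein. The breeds again did not overlap, and the difference was -0.27 (SE 0.09, adjusted p = 0.274). HSPD1 and HSPE1 are next to each other in the RefSeq annotation of the ARS-UCD2.0 assembly, and in mammals they are known to be transcribed from a shared promoter.

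The other mitochondrial members by symbol also had lower values in Brahman. DNAJA3, a J protein of the matrix, varied least among animals of a breed of the 11 genes above: 7.43, 7.41 and 7.44 in Brahman and 7.68, 7.61 and 7.65 in Holstein. Its difference was -0.22 (SE 0.08, adjusted p = 0.312). DNAJC19, a J protein of the import motor at the inner membrane, read 8.46, 8.54 and 8.39 in Brahman and 8.60, 8.85 and 8.65 in Holstein, a difference of -0.24 (adjusted p = 0.366). The breeds do not overlap in either gene, though the gap for DNAJC19 is 0.07.

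HSPA9, the matrix HSP70 also called mortalin, which pulls in imported proteins, read 8.68, 8.48 and 8.63 in Brahman and 8.65, 8.89 and 8.74 in Holstein. The breeds overlapped through Brahman 1 and Holstein 1, and the difference was -0.16 (adjusted p = 0.543). DNAJC11, an outer membrane J protein linked to cristae organisation, differed by -0.12 (adjusted p = 0.596). The mitochondrial chaperones and cofactors outside the symbol rule went both ways. GRPEL1, an exchange factor of HSPA9, differed by -0.20 without overlap (adjusted p = 0.390) and TRAP1, the mitochondrial HSP90, by -0.34 (adjusted p = 0.482). GRPEL2, the paralogue of GRPEL1, was higher by 0.11 and the disaggregase CLPB by 0.05, both with overlap (adjusted p = 0.685 and 0.883).

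Read by compartment, an assignment made after the values were seen, all 6 mitochondrial members had lower values in Brahman. Of these, 4 had p under 0.05 before adjustment. Over all named genes 51.7% had lower values and 9.62% were lower at that threshold. The second probe sets of HSPA9 and DNAJC19 were higher by 0.11 and 0.08, at means of 4.83 and 3.77, under the lower quartile of all probe sets. With 1 mean value per gene HSPA9 stood at -0.024 and DNAJC19 at -0.082. The median of the 6 was -0.23. Their mean level was 8.77 ± 0.01 on the Brahman arrays and 8.99 ± 0.07 on the Holstein arrays (SD, n = 3 arrays a breed). The spike-in level and the actin 3′ minus 5′ level separated the breeds as well. A model with the spike-in level cannot tell its part from that of breed, and the part of the actin level was not tested. When the spike-in level was added to the model 4 of the 6 were lower, 0 of them by limma at p under 0.05 before adjustment, and the median was -0.12. In fits that leave out an array the count at that threshold was 2, 1 and 1 without Brahman 1, 2 and 3, and 3, 3 and 2 without Holstein 1, 2 and 3. All 6 values stayed lower in each of those fits. A difference between the mitochondrial members and other genes was not tested.

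**Figure D3:**
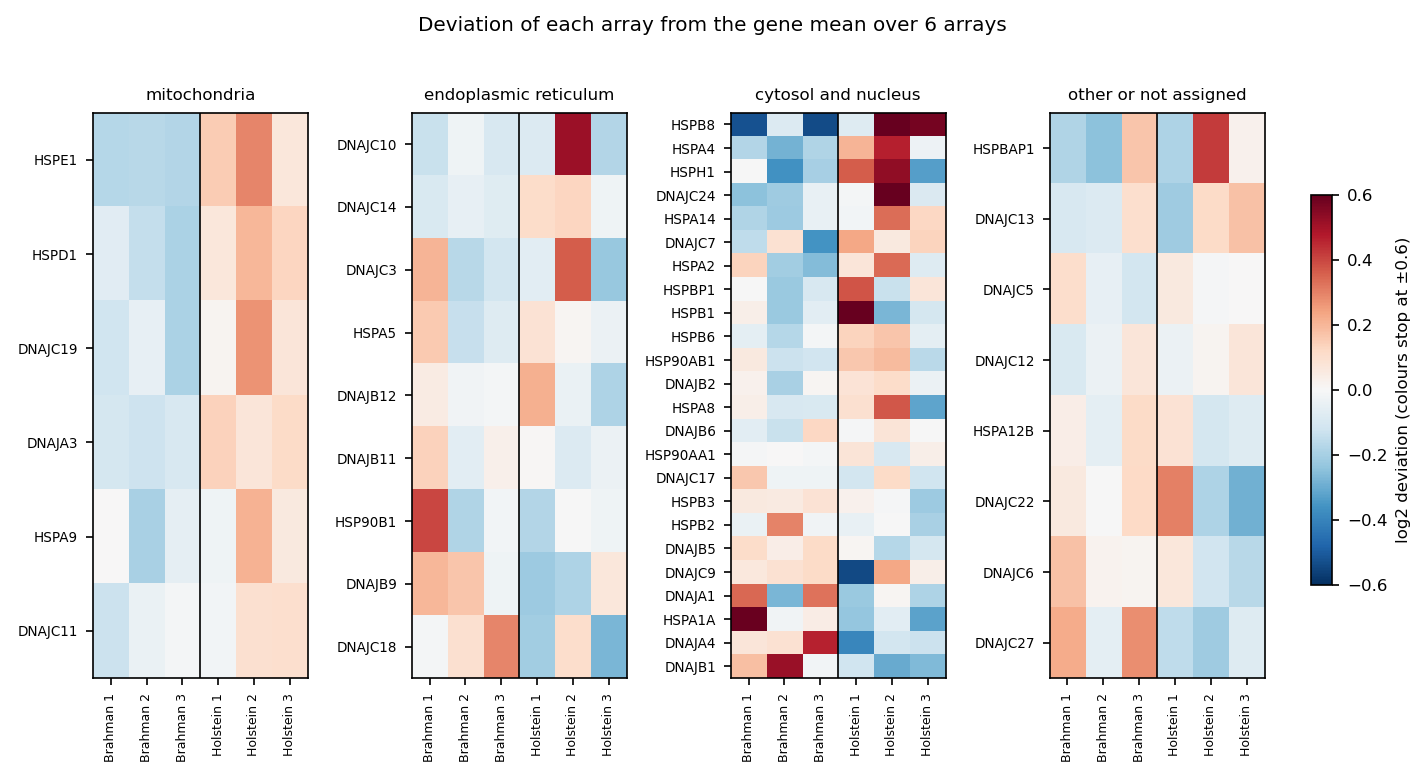
Deviation of each array (columns) from a gene's mean over the 6 arrays (rows, colour in log2, red higher and blue lower) for the members by compartment, with a line between Brahman and Holstein. The 6 mitochondrial genes are lower on nearly all Brahman arrays, while those of the endoplasmic reticulum show no common side and Holstein 2 holds many of the highest values.

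Chaperones of the endoplasmic reticulum, where secreted and membrane proteins fold, had no common direction. Of 9 members 4 were lower and 5 higher, limma gave 0 of them p under 0.05 before adjustment, and the median was 0.01. HSPA5, the reticulum HSP70 called BiP, read 11.44, 11.14 and 11.20 in Brahman and 11.37, 11.30 and 11.25 in Holstein, and the breeds overlapped (-0.04, SE 0.11). HSP90B1, the reticulum HSP90 called GRP94, read 11.34, 10.76 and 10.93 in Brahman and 10.77, 10.94 and 10.92 in Holstein. Brahman 1 alone stood above the rest, and the difference of 0.13 became -0.03 without it.

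Among the J proteins of the reticulum, DNAJB9, which targets misfolded proteins for disposal, read 7.76, 7.73 and 7.54 in Brahman and 7.35, 7.38 and 7.63 in Holstein. Brahman 3 lay below Holstein 3, so the breeds overlapped (0.22, adjusted p = 0.444). DNAJC18, which sits in the reticulum membrane, read 7.00, 7.11 and 7.31 in Brahman and 6.81, 7.12 and 6.74 in Holstein (0.25, adjusted p = 0.462). DNAJC10, a disulphide reductase, differed by -0.17 with Holstein 2 far above the other arrays at 10.39. The BiP cofactor DNAJB11 (0.07), DNAJC3 (-0.05), an inhibitor of the kinase PERK, and the membrane proteins DNAJB12 (0.01) and DNAJC14 (-0.14) differed by less than 0.15. Of these the breeds separated only in DNAJC14 (7.76, 7.80 and 7.78 in Brahman, 7.96, 7.98 and 7.83 in Holstein), by 0.02.

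The wider set of endoplasmic reticulum stress genes was mixed as well. Of 20 measured genes of 27 listed, 2 were higher and 3 lower at p under 0.05 before adjustment, limma called 0, and the median was -0.03. EIF2AK3, the gene of PERK, was higher in Brahman by 0.37 (SE 0.09, adjusted p = 0.170), ERO1A, an oxidase for disulphide formation, was lower by the value -0.31, and TRIB3, a pseudokinase induced by stress, was higher by 0.40. ERO1A read 4.87 in Brahman, under the lower quartile of all probe sets, so the size of its difference is uncertain. The other lower genes at that threshold were DDIT3 (-0.48, adjusted p = 0.341) and SEL1L (-0.25, adjusted p = 0.302), both without overlap. DDIT3 had the largest difference of the list.

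The 24 members of the cytosol and nucleus held 15 lower and 9 higher values, 3 of each at p under 0.05 before adjustment, and their median was -0.10. The J protein gene DNAJB1 had higher values in Brahman, as did the brightest of the 6 probe sets of the heat-inducible HSP70 gene HSPA1A. The other HSPA1A probe sets, given below, went both ways. That brightest HSPA1A probe set read 10.19, 9.58 and 9.64 in Brahman and 9.37, 9.53 and 9.28 in Holstein. Brahman 1 was far above all other arrays, and Brahman 2 lay only 0.04 above Holstein 2. The difference was 0.41 (SE 0.17, adjusted p = 0.363), and 0.22 (adjusted p = 0.609) without Brahman 1. The mean over all probe sets of HSPA1A gave 0.14 (adjusted p = 0.598 by limma).

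DNAJB1, the main J protein partner of inducible HSP70, read 8.91, 9.25 and 8.71 in Brahman and 8.61, 8.42 and 8.46 in Holstein. No arrays overlapped and Brahman 2 was highest, and the difference was 0.46 (SE 0.15, adjusted p = 0.266), or 1.37-fold higher. Its other probe set went the same way: 6.28, 7.77 and 5.91 in Brahman and 5.73, 5.83 and 5.55 in Holstein. There the value of Brahman 2 was more than 1 log2 unit above every other array, and the difference of 0.95 carried an SE of 0.43 (adjusted p = 0.390).

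HSPH1, the HSP110 gene that HSF1 also induces, did not share that side. It read 8.67, 8.30 and 8.47 in Brahman and 9.03, 9.20 and 8.34 in Holstein, with Holstein 3 down among the Brahman values. The difference was -0.38 (SE 0.22, adjusted p = 0.508), and -0.64 (adjusted p = 0.1245) without Holstein 3. That was the largest of the fits that leave out an array, which ranged from -0.64 to -0.21, with p under 0.05 before adjustment in 1. With the spike-in level in the model it was -0.16, and the mean over all HSPH1 probe sets gave -0.16. The 3 other probe sets of HSPH1 differed by 0.08, -0.22 and -0.10, at means of 5.43, 5.25 and 4.32, the last under the lower quartile of all probe sets. Among these, the value of -0.22 had unadjusted p under 0.05 (adjusted p = 0.341) and no overlap between the breeds.

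HSPA1A is the member with the most probe sets, and they disagree. The annotation table gives this symbol to 6 probe sets under 2 Entrez identifiers: 2 probe sets carry 281825, which had no entry in the RefSeq table used here, and 4 carry 282254, which that table names HSPA1A. Both probe sets of 281825 were higher in Brahman. The one not used above read 9.38, 8.76 and 8.74 in Brahman and 8.56, 8.58 and 8.34 in Holstein (0.47, SE 0.18, adjusted p = 0.335).

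The 4 probe sets of 282254 went both ways. Numbered from the highest mean level down over all 6, probe set 4 read 8.80, 8.80 and 8.44 in Brahman and 8.30, 8.24 and 8.21 in Holstein, higher without overlap (0.43, SE 0.12, adjusted p = 0.221). Probe set 2 read 8.47, 8.40 and 8.69 in Brahman and 8.87, 9.09 and 8.98 in Holstein, lower without overlap (-0.46, SE 0.11, adjusted p = 0.188). That adjusted p was smaller than that of any of the 47 probe sets chosen by level. Probe sets 5 and 6 differed by 0.10 and -0.11 with overlap. In fits that leave out an array, probe set 4 stayed between 0.37 and 0.55 and probe set 2 between -0.55 and -0.40. Genes of inducible HSP70 are near-identical copies in mammals, and no probe sequences were used here. Which copy a probe set reads is therefore uncertain, and the array gives no single direction for HSPA1A.

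**Figure D4:**
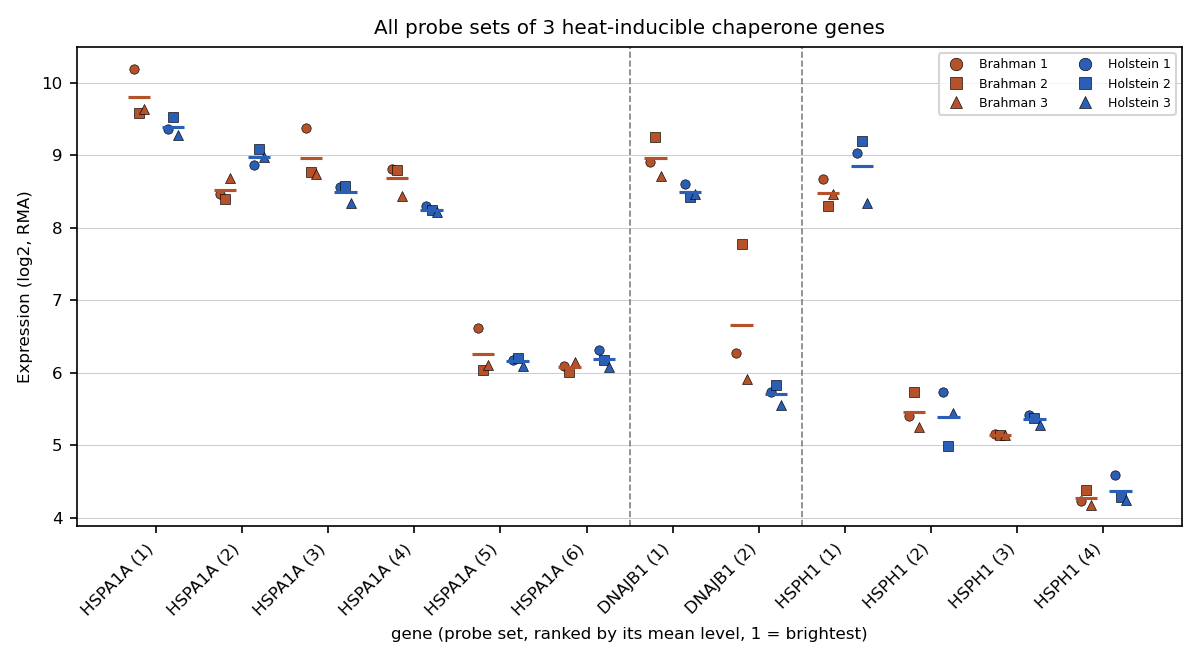
Log2 RMA expression of every probe set of HSPA1A, DNAJB1 and HSPH1, ordered within a gene from the highest mean level (1) down, with the breed mean as a bar. HSPA1A probe sets 1, 3 and 4 have higher and probe set 2 lower values in Brahman without overlap, and Brahman 2 stands apart in the second DNAJB1 probe set at 7.77.

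Of the 17 members with several probe sets, 12 had probe sets of opposite sign, and in 3 of these at least 1 probe set had p under 0.05 before adjustment: HSPA1A, HSPH1 and DNAJC19. The second DNAJC19 probe set differed by 0.08 from a mean of 3.77, under the lower quartile of all probe sets. Agreement was seen for HSPA4, whose probe sets were both lower without overlap, and for DNAJC14. In DNAJC24 and DNAJC10 a further probe set was lower without overlap (-0.36 and -0.29), while the remaining one differed by 0.04 and 0.09.

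HSPA8 and the HSP90 genes of the cytosol showed no separation of the breeds. HSPA8, the HSP70 that every cell uses, read 12.87, 12.74 and 12.74 in Brahman and 12.93, 13.21 and 12.52 in Holstein. Holstein 2 and Holstein 3 were the highest and the lowest of all arrays, so the Holstein range enclosed the Brahman one (-0.10, SE 0.17). HSP90AA1, the inducible HSP90, was nearly flat at 11.94, 11.95 and 11.94 in Brahman and 12.03, 11.85 and 11.98 in Holstein (-0.01, SE 0.09). HSP90AB1, the constitutive HSP90, read 11.85, 11.66 and 11.68 in Brahman and 11.95, 11.98 and 11.63 in Holstein (-0.12, SE 0.12).

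The second HSP90AA1 probe set varied far more between animals, from 9.85 on Holstein 2 to 10.90 on Brahman 2, with a difference of 0.04 (SE 0.29). HSPA2, an HSP70 best known from the testis, differed by -0.22 with overlap, and HSPA12B, a distant relative known from endothelium, by 0.06. DNAJA1, a J protein of the cytosol, read 8.76, 8.14 and 8.74 in Brahman and 8.19, 8.43 and 8.23 in Holstein. Brahman 2 lay below all Holstein arrays while the other Brahman arrays lay above them, and the difference of 0.26 (adjusted p = 0.561) became 0.47 without Brahman 2.

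The HSP70 relatives that serve as exchange factor or at the ribosome were lower in Brahman. HSPA4, which despite its symbol is an HSP110 protein, read 8.41, 8.29 and 8.40 in Brahman and 8.79, 9.04 and 8.55 in Holstein. The Brahman arrays were close together and all below Holstein 3, the lowest Holstein array (-0.43, SE 0.13, adjusted p = 0.261). Its second probe set differed by -0.22, without overlap by less than 0.01. HSPA14, which works with a J protein on chains leaving the ribosome, read 9.29, 9.25 and 9.42 in Brahman and 9.45, 9.80 and 9.59 in Holstein (-0.29, adjusted p = 0.340). The second HSPA14 probe set differed by -0.01 with overlap (adjusted p = 0.986), and the mean over both gave -0.15 (adjusted p = 0.482). In the model with the spike-in level HSPA4 stood at -0.15 and HSPA14 at 0.05.

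The nucleotide exchange factor HSPBP1 differed by -0.21 and HSPBAP1, a partner of HSPB1, by -0.17, both with overlap.

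Among the small heat shock proteins, HSPB8 had the largest difference of any member. HSPB8, which with BAG3 directs damaged proteins to autophagy, read 7.00, 7.45 and 6.99 in Brahman and 7.45, 8.17 and 8.10 in Holstein. Brahman 2 almost met Holstein 1, with a gap of 0.0038, while the other arrays of the breeds stood well apart (-0.76, SE 0.22, adjusted p = 0.230, 1.69-fold lower). Without Holstein 1 the difference was -0.99, and with the spike-in level in the model it was -0.23 (adjusted p = 0.8555). BAG3 itself differed by -0.37 with overlap (adjusted p = 0.497).

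HSPB1, also called HSP27 and an actin-associated chaperone, read 11.43, 11.18 and 11.34 in Brahman and 12.04, 11.12 and 11.29 in Holstein. Holstein 1 stood alone above all other arrays, and the difference of -0.17 became 0.11 without it. HSPB2, HSPB3 and HSPB6, known mainly from muscle, differed by 0.16, 0.13 and -0.16. HSPB3 and HSPB6 had means of 4.03 and 4.73, under the array's lower quartile, where a signal may be background. DNAJC6 was the only other member that dim, and 44 members lay above that level.

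Further J proteins differed on both sides. DNAJA4, a cytosolic J protein linked to sterol metabolism, read 6.65, 6.67 and 7.04 in Brahman and 6.19, 6.47 and 6.45 in Holstein. Brahman 3 was highest, and all Brahman arrays lay above all Holstein arrays (0.42, SE 0.14, adjusted p = 0.277). In the model with the spike-in level it was 0.75 (adjusted p = 0.4176). DNAJC27, a small GTPase with a J domain, read 6.85, 6.57 and 6.91 in Brahman and 6.48, 6.41 and 6.55 in Holstein, higher by 0.30 (adjusted p = 0.327) with a gap of 0.02.

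DNAJC7, a carrier of clients between HSP70 and HSP90, read 8.98, 9.22 and 8.77 in Brahman and 9.36, 9.19 and 9.27 in Holstein, with overlap through Brahman 2 (-0.28, adjusted p = 0.396). Its second probe set gave 0.01. DNAJB5 read 5.74, 5.66 and 5.74 in Brahman and 5.63, 5.45 and 5.52 in Holstein (0.18, adjusted p = 0.441, no overlap). DNAJC24, an enzyme cofactor of diphthamide synthesis on elongation factor 2, read 6.10, 6.14 and 6.31 in Brahman and 6.34, 6.95 and 6.26 in Holstein, and its difference of -0.34 became -0.12 without Holstein 2.

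DNAJC9, a histone chaperone, read 7.53, 7.56 and 7.58 in Brahman and 6.92, 7.70 and 7.50 in Holstein. Holstein 1 lay far below the other arrays, and the difference of 0.18 became -0.04 without it. The 8 DNAJ members not yet given had p-values above 0.2 and differences from -0.10 for DNAJB2, a J protein known from neurons, to 0.14 for DNAJC6, the auxilin that uncoats clathrin vesicles. They include DNAJB6 (-0.05), which holds back protein aggregates, DNAJC13 (-0.05) of endosomes, the vesicle protein DNAJC5 (-0.04), DNAJC17 (0.08) of splicing, DNAJC12 (-0.04), a cochaperone of aromatic amino acid hydroxylases, and DNAJC22 (0.12), all with overlap.

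The cofactors of HSP70 and HSP90 outside the symbol rule, from a list of 30, were measured for 28 genes. Of these 1 was lower and 1 higher at p under 0.05 before adjustment, limma called 0, 20 had lower values and the median was -0.10. UNC45A, a myosin chaperone that binds HSP90, differed by -0.26 (adjusted p = 0.284) and PTGES3, the HSP90 cofactor p23, by 0.26 (adjusted p = 0.346). GRPEL1, given above, followed. Without Holstein 3 the lower count was 5, and the higher count was 0 when Brahman 1, Brahman 2, Holstein 2 or Holstein 3 was left out, and the lower count 0 without Brahman 1 or Brahman 2.

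Regulators of the heat shock response were measured for 11 of 13 listed genes. Their median was -0.01, with 2 lower and 1 higher at p under 0.05 before adjustment. HSF1, the main factor, differed by -0.0030 (SE 0.11): 8.29, 8.11 and 8.16 in Brahman and 8.33, 8.03 and 8.21 in Holstein. HSF2BP, which binds HSF2, differed by 0.51 (adjusted p = 0.200), the unfoldase VCP by -0.32 (adjusted p = 0.230) and HSF4 by -0.29 (adjusted p = 0.308). At an adjusted p under 0.05 limma called 0 of the 11.

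Animals of a breed differed in their chaperone levels by about as much as in other genes. The median SD over members was 0.11 in Brahman and 0.13 in Holstein, beside 0.11 and 0.15 over all named genes, and the Holstein SD was the larger in 68.1% of members and 65.4% of all named genes. Within Holstein, array 2 held the highest value in 27 of 47 members (57.4%, beside 36.7% of all named genes) and array 3 in 5 (10.6%, beside 22.9%). Within Brahman, array 2 held the lowest value in 26 members (55.3%, beside 36.1%). Holstein 2 also had the highest spike-in level, 10.38. Leaving it out, 6 members were lower and 4 higher at p under 0.05 before adjustment, beside 6.75% and 5.4% of all named genes.

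Markers of some cell types also differed in value between the breeds, with 0 called. T cell markers were higher in Brahman in 9 of 10 genes, 7 of them at p under 0.05 before adjustment, and had list means of 9.77 to 9.93 on Brahman and 9.39 to 9.56 on Holstein arrays. The 3 measured monocyte markers of 6 listed were lower, at 8.80 to 9.21 against 9.38 to 10.07, with CD14 at -0.94. B cell (3 of 7), NK cell (5 of 5), neutrophil (5 of 7), platelet (2 of 5) and red cell (5 of 5) markers had medians of -0.14, 0.09, 0.09, -0.25 and 0.04. Their list means overlapped between the breeds in NK, neutrophil, platelet and red cell markers and were 11.09 to 11.25 on Brahman against 10.83 to 11.07 on Holstein arrays for B cell markers. Of these only BLK was higher in Brahman (0.97), while CD79A (-0.23) and MS4A1 (-0.14) were lower. The other medians also hide differences of opposite sign. NK cell markers were 4 higher and 1 lower, with KLRD1 at 0.90 and PRF1 at -0.60. Neutrophil markers were 3 higher and 2 lower, with ALPL at 1.42 without overlap and S100A12 at -0.41. Red cell markers were 3 higher and 2 lower, with ALAS2 at -0.56 and HBB at 0.12. The platelet genes PF4 and ITGA2B were at -0.60 and 0.10. Of the listed eosinophil markers 0 were measured. The part of these cell types in the chaperone values was not tested.

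**Figure D5:**
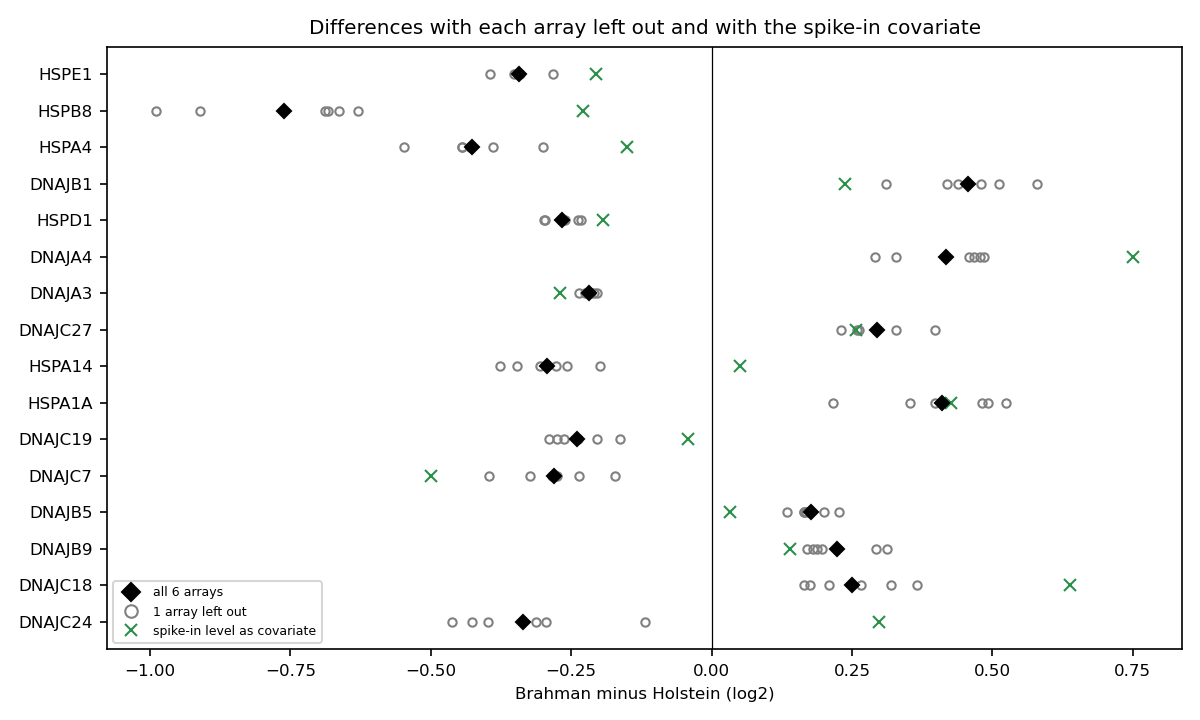
Differences (Brahman minus Holstein, log2) of the 16 members of smallest p with all 6 arrays (diamonds), with each array left out in turn (circles) and with the spike-in level in the model (crosses). HSPE1, HSPB8, HSPA4 and DNAJB1 kept an unadjusted p under 0.05 in all 6 fits that leave out an array, and HSPA14 and DNAJC24 cross 0 with the covariate.

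HSPE1, HSPB8, HSPA4 and DNAJB1 were the members that kept an unadjusted p under 0.05 without any single array. HSPD1 and DNAJA4 kept it in 4 of those 6 fits, HSPA1A in 3, DNAJC27 and HSPA14 in 2, and DNAJA3 and DNAJC19 in 1. With the spike-in level in the model the 7 lower and 4 higher members became 2 and 4. Beside them stood 4.75% and 5.16% of all named genes. Of the members counted there, DNAJA4 alone is among the original 11. Some of the others kept their size in that model: DNAJA3 was -0.27, HSPA1A 0.43 and DNAJC27 0.26, against -0.22, 0.41 and 0.30 without it. DNAJC19 was -0.041, against -0.24. The spike-in level separated the breeds, so this model cannot tell its part from that of breed and loses precision. For HSPA1A limma gave an unadjusted p of 0.25 in that model, against 0.047 without it. No member was called in any of these fits, the smallest adjusted p being 0.123 without Holstein 3.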

How the data were processed

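Expression was measured in white blood cells of 6 cattle, 3 Brahman and 3 Holstein, on 1-colour bovine expression arrays. The authors deposited log2 values, and the submitters' processing notes name RMA, which subtracts background, equalises the distributions of the arrays and combines probes. Its version is not given in the sources used. Of 24128 probe sets 112 were controls and 24016 were tested, with values from 2.89 to 14.45. No scanner intensities were used. The platform annotation gave 1 symbol to 13292 probe sets, several to 86 and none to 10638. The RefSeq table held the Entrez identifier of 46 of the 47 members, all with the same symbol. Coordinates are left out.

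Members and gene lists were chosen with earlier results of these data known. Breed was fitted with limma 3.58.1 in R 4.3.3 (lmFit, eBayes), two-sided, over all probe sets, with calls at an adjusted p under 0.05. Per-array values are given for the 16 members of smallest p, the 6 of highest mean, the 4 of largest within-breed SD and classical chaperones, and for the other pathway lists the 3 genes of smallest p; others were named after their values were seen. The fit was tested on simulated data with planted differences larger than that of any member in the main fit, and with equal noise in both breeds. That test does not show how well differences of the members' size are found. Alternatives were other normalisations, a filter at the lower quartile, a trended robust prior, weights for arrays, a block for the replicate number, the mean of 18 spike-in probe sets as a covariate, the mean over probe sets of a gene, and each array left out. No label ties replicate numbers of the breeds together. No sequence table was used here.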

Additional observations from a re-analysis of the deposited data

How the results depend on the processing

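No member was called in any of the 14 alternatives. Among the counts and medians, 296 values stayed near the main count or within the spread of the median, 38 were weaker, 10 stronger and 20 moved. Some medians within their spread changed sign. The median of all members was 0.00049 with the covariate, against -0.049 in the main fit. With quantile normalisation repeated, HSP90 had 0.027 and reticulum stress genes 0.011, against -0.011 and -0.033. The calls over all probe sets, 33 with all arrays, were 10 with the replicate number as a block and 0 with the spike-in covariate. In that covariate fit limma gave unadjusted p under 0.05 to 435 named genes lower and 472 higher. With an array left out the calls over all probe sets ranged from 5 (without Brahman 2) to 55 (without Holstein 3). The fit with 1 mean value per gene tested named genes only, and it called 13 of 9155. The main fit called 15 of these genes, each read from its brightest probe set. The 13 was counted among the 38 weaker values by comparison with the 33 probe sets, which is not a like comparison. Deviations of arrays with the same number correlated at 0.11, -0.043 and -0.074, and only number 1 correlated best with its own number. Correlations this small, over 3 arrays a breed, can neither show nor exclude a pairing of the animals. Members lower at unadjusted p under 0.05, 7 with all arrays, were 2 with the covariate and 4 to 6 with an array left out, and the 4 higher became 2 to 5. With an array left out, 6.75% to 12% of all named genes were lower and 4.42% to 6.55% higher. Mitochondrial members at that threshold were 2 with a trended robust prior, 0 with the covariate and 1 to 3 with an array left out, and their median was -0.17 with 1 mean value per gene and -0.12 with the covariate. With the covariate the medians were 0.49 for DNAJA, 0.14 for DNAJC, -0.20 for HSP60 and HSP10, -0.084 for small heat shock proteins, -0.18 for cofactors, -0.26 for heat shock regulators and -0.15 for reticulum stress genes. Small heat shock proteins had -0.015 with 1 mean value per gene and -0.23 to 0.11 with an array left out, DNAJA 0.16 to 0.47, DNAJB 0.019 to 0.12 and the regulators -0.11 to 0.048. Cofactors at that threshold were 2 lower with array weights, array medians subtracted or the replicate block, 0 higher with the latter pair or the covariate, and 0 to 5 lower and 0 to 2 higher with an array left out. Regulators were 0 lower and 2 higher with the covariate, 2 higher with the replicate block, 0 higher with 1 mean value per gene and 1 to 4 lower with an array left out. Reticulum stress genes were 1 higher with the covariate, and 1 to 4 lower and 1 to 2 higher with an array left out.

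Signs turned in members with unadjusted p over 0.05 and in HSPA14. HSP90AA1 was 0.027 with quantile normalisation repeated, 0.013 with 1 mean value per gene, and -0.063 to 0.025 with an array left out, where it was also 0.0033 without Holstein 3. HSPA5 was 0.038 with 1 mean value per gene and -0.13 to 0.018 with an array left out. With the covariate HSPA14 was 0.050, DNAJC24 0.30, HSPA9 0.031, HSPA8 0.18 and HSPA1A probe set 5 -0.0061. With an array left out, that probe set ranged from -0.083 to 0.20, HSP90B1 from -0.032 to 0.26, DNAJC9 from -0.045 to 0.34, HSPB1 from -0.35 to 0.11 and HSPA8 from -0.28 to 0.062. The cause was not tested. The alternatives on the mitochondrial members and on single HSPA1A probe sets were chosen after seeing the data.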
